A study of Mus musculus with 4 samples.

Results

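A set of 9 genes of the interferon response and of antigen presentation was followed in mouse brain, hindbrain and spinal cord. They are the interferon-induced effectors Ifit1, Ifit3, Isg15, Usp18, Oasl2 and Bst2, the transcription factor Irf7, and the antigen presentation genes B2m and Cd74. Members were found by gene symbol in the array's annotation, which gave 9 probe sets of 8 genes among 45101. Isg15 is listed only on a probe set that carries a second symbol, so it has no value here. Each probe set reports a transcript by 1 intensity, summarised from several short probes.

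Total RNA of the 3 regions was hybridised to 4 Affymetrix arrays. For 2 arrays a Nugen kit made the labelled cDNA, and 2 received antisense RNA (aRNA) from a T7-based amplification. Each preparation has an array numbered 0 and an array numbered 1, without a stated meaning. Strain, age, treatment and the number of animals are not stated, nor whether both preparations used the same RNA.

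Type I interferons bind a receptor of 2 chains, Ifnar1 and Ifnar2, and the kinases Jak1 and Tyk2 then pass the signal on to the nucleus. There a complex that holds Irf9 binds response elements in the promoters of interferon-induced genes, and Irf7 is itself induced and raises interferon production further. B2m encodes beta-2-microglobulin, the light chain of MHC class I, and Cd74 encodes the invariant chain that escorts MHC class II. In the healthy central nervous system MHC class II is known mainly from macrophages at the brain's borders and, at low level, from microglia.

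The promoters of these genes were searched for the shared element and are printed for the measured members in which it was found. RefSeq promoter sequences (GRCm38.p6, 250 bases before the transcription start to 50 after it) were found by symbol for 7 of the 9 genes, and both strands were searched for GAAA, any 2 bases and GAAA, the core of the interferon-stimulated response element. It was present in 5 of the 7 (Ifit1, Ifit3, Isg15, Bst2 and B2m) and in 3.44% of 32851 promoters of the same length. Capitals mark the matches, with 15 bases on either side, read in the direction of the gene. The Ifit1 and Ifit3 matches lie on the opposite strand, so they appear as the reverse complement.
Ifit1, chr19:34640770-34640828, plus strand: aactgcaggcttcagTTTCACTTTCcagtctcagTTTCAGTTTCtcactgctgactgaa
Ifit3, chr19:34583358-34583431, plus strand: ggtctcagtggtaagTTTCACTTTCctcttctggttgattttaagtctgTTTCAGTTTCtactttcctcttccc
Bst2, chr8:71537572-71537617, minus strand: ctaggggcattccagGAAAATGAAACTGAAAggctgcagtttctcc
B2m, chr2:122147533-122147572, plus strand: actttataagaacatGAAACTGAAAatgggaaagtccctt
The Ifit1, Ifit3 and Bst2 windows each hold 2 matches, and in Bst2 these overlap, where 0.225% of the promoters hold 2 or more. B2m holds 1. No match lay in the windows of Oasl2 and Irf7. TTCNNNGAA, the letters of the gamma-activated sequence, occurred in 1 of the 7, Bst2, against 8.3% of all promoters. A match describes these letters only.

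The deposited intensities share a 2% trimmed mean of 2500.02 on every array, and values were taken as log2(intensity + 16). Values of a preparation are given in the order number 0, number 1. The 95th percentile of 27 probe sets for Bacillus control transcripts, called the background level here, was 212 and 249 for the cDNA pair and 123 and 126 for the aRNA pair. The 22519 probe sets whose mean reached the median of all (8.38 on the log2 scale) were tested. That filter kept 7 of the 9 member probe sets, leaving out those of Usp18 and Irf7. By marker genes the target was neural: all 5 neuronal, all 4 measured oligodendrocyte and all 5 astrocyte genes lay above background on the 4 arrays, but only 1 of 6 Hox genes of hindbrain and spinal cord did. One array stood apart in sex-linked transcripts: Xist, made in female cells, read 8.55 on aRNA array 0 and 11.94 to 15.44 on the other arrays at 1436936_s_at, and the Y-linked Eif2s3y read 13.12 on that array against 4.75 to 7.92. For the genes named here, calls between the preparations that were lost without aRNA array 0 are therefore given. Calls of genes not named enter only the counts, and within aRNA the numbers cannot be compared without this array.

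Cd74 separated the preparations most clearly among the members. Its intensity at 1425519_a_at was 10401 and 3964 on cDNA and 492 and 649 on aRNA. Both cDNA arrays lay above both aRNA arrays, and all 4 were above background. On the log2 scale the means were 12.65 ± 0.98 and 9.18 ± 0.28 (SD, n = 2 each), a difference of 3.47 ± 0.47 (SE), or 11.1-fold (limma adjusted p = 0.000588). It was 3.28 without aRNA array 0 (limma adjusted p = 0.0006), and between 2.78 and 4.16 with any single array left out.

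Ifit1, a tetratricopeptide protein that binds viral RNA lacking the host cap methylation, was the other member called. Its intensity at 1450783_at was 1389 and 1319 on cDNA and 441 and 568 on aRNA. The cDNA arrays again lay above both aRNA arrays, by 1.41 ± 0.41 (SE) or 2.65-fold (limma adjusted p = 0.0232). This call was lost without aRNA array 0 (1.23, limma adjusted p = 0.122), without aRNA array 1 (1.58, limma adjusted p = 0.0559) or without cDNA array 0 (1.37, limma adjusted p = 0.0515).

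In all, 2 of the 7 tested member probe sets were called higher on cDNA and none lower. Of all 22519 probe sets tested, 20.2% were called higher and 22.9% lower, so a share of calls of this size is not particular to the members. At an unadjusted p under 0.05, the same 2 of 7 passed in limma, beside 11545 of all 22519 probe sets tested. The member differences ran from −1.04 to 3.47 with a median of −0.16, beside −0.11 over all probe sets tested. That overall median was −0.25 with each array centred on its own median, and small differences are to be read against it.

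The other effectors did not pass between the preparations. Ifit3, of the same gene family as Ifit1, read 2731 and 2167 on cDNA and 2059 and 3610 on aRNA (intensity, 1449025_at). These ranges overlap, and the log2 difference was −0.16 ± 0.37 (SE; limma adjusted p = 0.743). Oasl2, an oligoadenylate synthetase-like protein, read 1302 and 507 on cDNA against 785 and 1489 on aRNA (1453196_a_at), with a difference of −0.40 ± 0.55 (limma adjusted p = 0.58). In both genes aRNA array 1 was the brightest array and cDNA array 0 the next.

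Bst2 (tetherin), which holds budding virus at the cell surface, read 405 and 160 on cDNA and 539 and 545 on aRNA at 1424921_at. Both aRNA arrays lay above both cDNA arrays, but cDNA array 1 was under its background level. The difference was −1.04 ± 0.59 (SE; limma adjusted p = 0.186), or −0.74 with that level raised to background. It moved to −1.67 without cDNA array 0 (limma adjusted p = 0.0531) and to −0.41 without cDNA array 1 (limma adjusted p = 0.57), and was −1.04 without aRNA array 0. In all, 4 of the 9 member probe sets had preparations that did not overlap (Cd74, Ifit1, Bst2 and Irf7), 3 of them among the 7 tested, where 73.8% of all probe sets tested did not overlap.

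The members below the filter were close to background on cDNA. Usp18, the protease that removes Isg15 from proteins and restrains interferon receptor signalling, read 304 and 29.4 on cDNA and 204 and 399 on aRNA (intensity, 1418191_at). Its reading on cDNA array 1 was under background, and the preparations overlapped. Irf7 read 145 and 265 on cDNA and 319 and 455 on aRNA (1417244_a_at), with cDNA array 0 under background. Both aRNA arrays lay above both cDNA arrays for Irf7, by 0.90 on the log2 scale as measured and 0.65 with that level raised to background. In a fit without the filter neither passed (limma adjusted p = 0.41 for Usp18 and 0.393 for Irf7).

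B2m was bright on every array and its probe sets did not agree in sign. At 1449289_a_at the intensity was 30862 and 26654 on cDNA and 17478 and 32442 on aRNA, a log2 difference of 0.27 ± 0.29 (SE; limma adjusted p = 0.484). At 1452428_a_at it was 10864 and 11146 on cDNA and 8876 and 22508 on aRNA, a difference of −0.36 ± 0.39 (limma adjusted p = 0.479). In each, the aRNA arrays were the lowest and the highest of the 4, so the result depended on which was kept. Without aRNA array 0 the second probe set was called lower on cDNA (−1.03, limma adjusted p = 0.0149), and without aRNA array 1 the first was called higher (0.71, limma adjusted p = 0.0486).

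**Figure D1:**
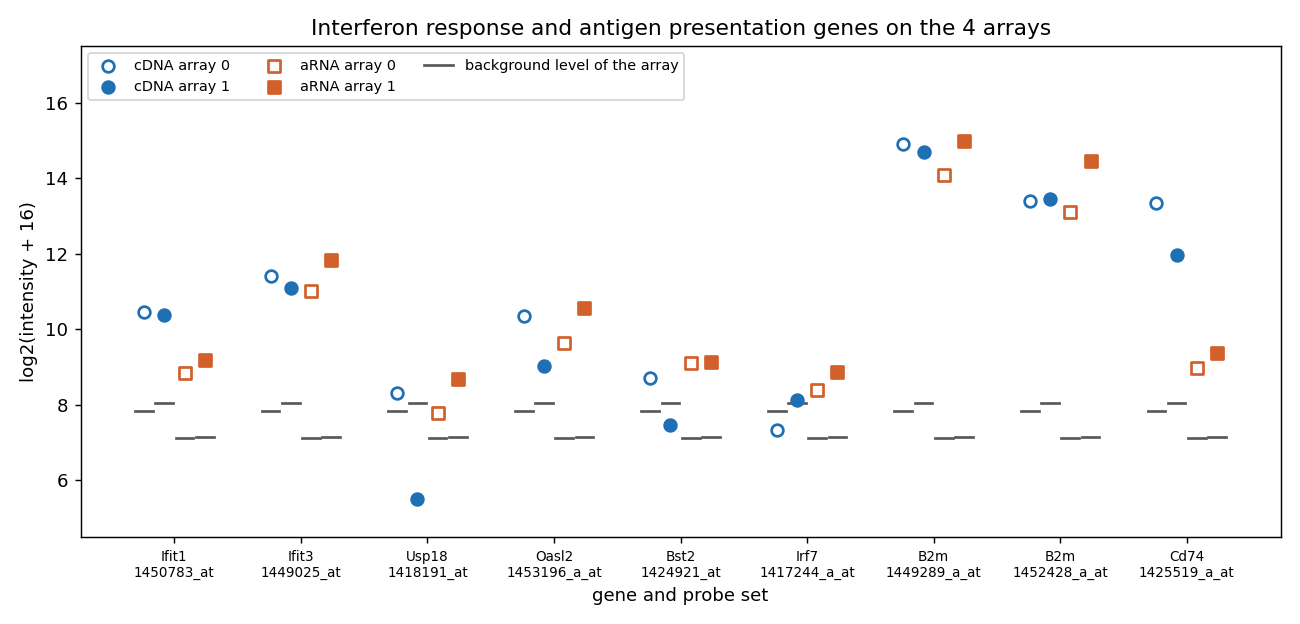
Log2(intensity + 16) of the 9 member probe sets on each of the 4 arrays; blue circles are cDNA and orange squares aRNA, open for number 0 and filled for number 1, and grey bars mark each array's background level. Cd74 and Ifit1 stand higher on both cDNA arrays, while Usp18 and Bst2 on cDNA array 1 and Irf7 on cDNA array 0 lie under background.

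Genes that work with Cd74 were set beside it. Of 10 genes of MHC class II presentation 7 were tested, with 2 called higher on cDNA, 1 lower and a median of 1.03, where 21.9% of all genes tested (1 probe set each) were called higher and 22.9% lower with a median of −0.06. H2-Ab1, the class II A beta chain, was higher by 3.63 (limma adjusted p = 0.00753). It lay under background on aRNA array 0, and with that level raised to background the difference was 2.94, or at least 7.67-fold. H2-Eb1, the E beta chain, was higher by 1.57 (limma adjusted p = 0.0159), and Lgmn, a lysosomal endopeptidase, was lower (−3.98, limma adjusted p = 1.37e-05). H2-Aa, the A alpha chain, gave 1.30 at its brightest probe set (1435290_x_at, limma adjusted p = 0.143) and was called at its other tested probe sets, 2.53 at 1438858_x_at and 1.88 at 1452431_s_at. Both lost the call without cDNA array 0, the first also without aRNA array 0 and the other without aRNA array 1. H2-Eb1 was not called without aRNA array 0 (limma adjusted p = 0.0629) or cDNA array 0 (limma adjusted p = 0.0709), and without aRNA array 0 the list's median was 0.29.

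For MHC class I, 10 of 16 genes were tested, with 2 called higher, 1 lower and a median of 0.18. Psme1, a proteasome activator subunit, was higher by 1.40 (limma adjusted p = 0.0177) and Tapbp (tapasin, which loads peptides) by 0.87 (limma adjusted p = 0.0331). Without aRNA array 0 neither was called, nor was either without cDNA array 1, and Tapbp was not called without cDNA array 0. Tap2, a peptide transporter subunit, was lower (−1.95, limma adjusted p = 0.0136), with cDNA array 0 under background, and was not called without aRNA array 0 (limma adjusted p = 0.0989) or aRNA array 1 (limma adjusted p = 0.0537). The heavy chain genes H2-K1 (−0.32 at 1425336_x_at) and H2-D1 (0.07 at 1451784_x_at) did not pass, nor did the immunoproteasome genes Psmb8 (1.27) and Psmb10 (0.45).

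Markers of several other cell types differed between the preparations. Of 5 neutrophil markers 3 were tested and all 3 were called higher on cDNA (S100a9, S100a8 and Ngp), and the summed intensity of the 5 was 8396 and 30205 on cDNA against 712 and 478 on aRNA. S100a8 and S100a9 were under background on both aRNA arrays. Of 7 measured markers of border macrophages, monocytes and dendritic cells, 5 were tested. Mrc1, a mannose receptor of border macrophages, was called higher (3.06, limma adjusted p = 0.0137). It lay under background on aRNA array 0, so the difference is at least 2.70 (6.51-fold), and it was not called without cDNA array 0. Flt3 was called lower (−1.64, limma adjusted p = 0.00414). The summed intensity of these 7 was 6478 and 6034 on cDNA and 6717 and 10382 on aRNA. Flt3 made up most of the aRNA sums, with 1761 and 2739 on cDNA and 5943 and 7946 on aRNA. Mrc1 read 2506 and 1079 on cDNA and 68 and 453 on aRNA, so the sum does not stand for each marker. Of 12 tested microglial and macrophage genes 1 was called higher (C1qb, 2.37) and 1 lower (Cx3cr1, −2.16), a smaller share than among all genes. These counts were 1 and 3 without aRNA array 0 (median −0.69), 7 and 0 without aRNA array 1 (median 1.82), 0 and 1 without cDNA array 0, and 0 and 0 without cDNA array 1. Of 3 tested endothelial genes 2 were called higher, Flt1 by 2.17 and Vwf by 4.90. Vwf lay under background on aRNA array 0, which makes it at least 15.9-fold higher. None of 5 neuronal genes was called. Astrocyte Slc1a3 (3.46 at 1452031_at) and oligodendrocyte Mog (2.01) were called higher, and Slc1a2 (−0.67 at 1438194_at) and Mobp (−1.43) lower. Astrocyte Gfap gave 0.51 at its brightest probe set (1440142_s_at, limma adjusted p = 0.776) and was called higher at 1426508_at and 1426509_s_at. With levels under background raised these gave 4.28 and 4.64, and without aRNA array 0 they gave 2.43 and 2.83. That Slc1a2 probe set was called only with all 4 arrays or without aRNA array 0. Other probe sets of Slc1a3 and Slc1a2 were called in the direction opposite to these genes' brightest probe sets. With levels under background raised, Slc1a3 gave −2.22 at 1426340_at and −2.16 at 1443749_x_at, and Slc1a2 gave 1.47 at 1451627_a_at. Without aRNA array 1 none of these kept its call, and the Slc1a2 one was also lost without aRNA array 0 or cDNA array 0. No B cell marker (3 measured) and no T or NK cell marker (6 measured) was above background on all 4 arrays. None of them passed the filter, and only 1, a T or NK cell marker, lay under background on all 4. The summed intensity of the B cell markers was 901 and 122 on cDNA and 355 and 294 on aRNA. For the T and NK cell markers it was 2046 and 1367 on cDNA and 571 and 722 on aRNA. The part of these cells in the Cd74 difference was not tested. The preparations differ in how the RNA was amplified, and whether they used the same RNA is not stated. An effect of the preparation, fewer cells and less RNA per cell therefore cannot be told apart.

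**Figure D2:**
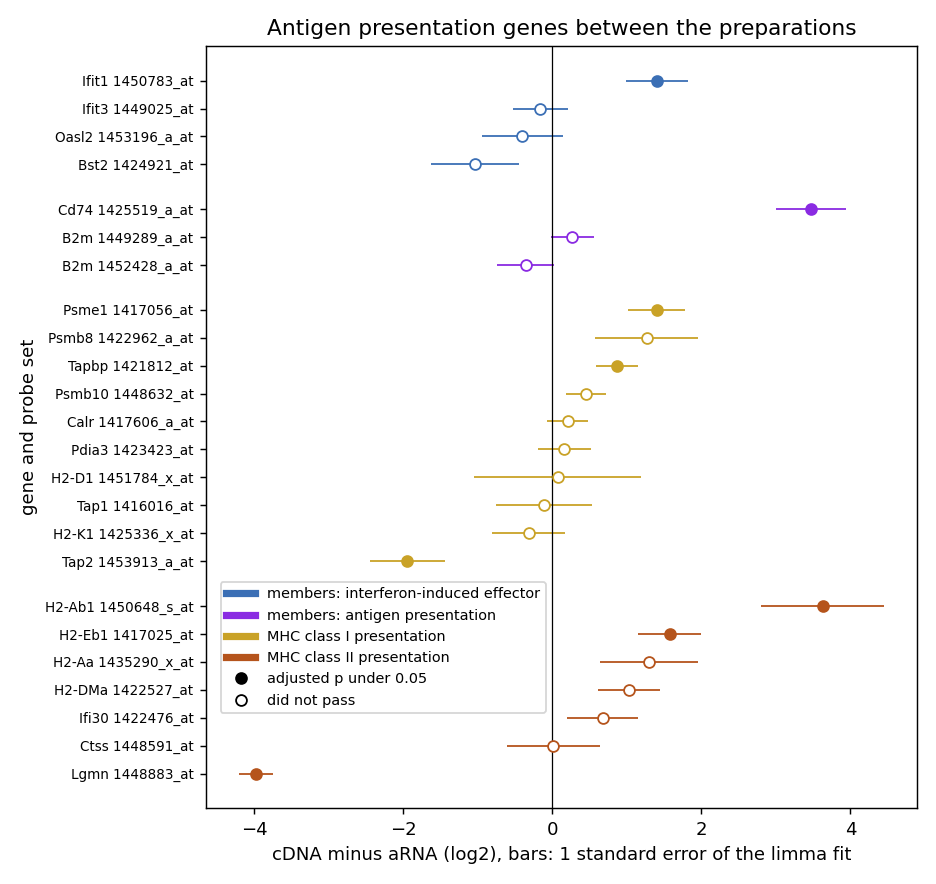
Difference between cDNA and aRNA (log2, horizontal axis) for the tested members and the tested genes of MHC class I and class II presentation, 1 probe set per gene except B2m; bars are 1 standard error of the limma fit and filled points passed an adjusted p of 0.05. Cd74 lies at 3.47 and H2-Ab1 at 3.63, which is 2.94 with its reading under background raised to that level, and Lgmn at −3.98 lies farthest the other way.

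The remaining pathway genes split between directions. Of the interferons and their receptors 4 of 8 were tested. Ifngr1, a chain of the interferon gamma receptor, was lower on cDNA (−2.39, limma adjusted p = 0.000695), as was Ifnar2 (−1.05, limma adjusted p = 0.0334). The Ifnar2 call was lost without aRNA array 0, aRNA array 1 or cDNA array 1 (limma adjusted p between 0.0767 and 0.189). The interferon genes Ifna2, Ifna4, Ifnb1 and Ifng did not pass the filter, and Ifna2, Ifna4 and Ifng lay under background on all 4 arrays. Among 11 tested genes of signalling and transcription, Irf2 (3.81), Irf5 (2.26) and the kinase gene Jak2 (1.90) were called higher and Jak1 lower (−1.24), with limma adjusted p between 0.000872 and 0.00233. Among 7 tested sensors of nucleic acids, Tlr3 (2.50) and Ifih1 (2.23) were higher and the kinase gene Tbk1 (−1.99) and Cgas (−1.48) lower, with limma adjusted p between 0.000337 and 0.0323. Without aRNA array 0 Ifih1 (limma adjusted p = 0.0674) and Cgas (limma adjusted p = 0.209) were not called, and Cgas was also lost without aRNA array 1 or cDNA array 1. The median of the signalling genes was 0.51, and −0.28 without aRNA array 0. A value belongs to its probe set: the other tested Jak2 probe set, 1421065_at, was called lower (−2.62, limma adjusted p = 0.0268). With its cDNA array 1 reading raised to background it was at least 3.39-fold lower, and its call was lost without aRNA array 0, aRNA array 1 or cDNA array 1.

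The list of other interferon-induced genes is the closest comparison for the effectors. Of 48 genes 30 were tested, with 9 called higher on cDNA, 4 lower and 17 neither, and a median of 0.57. Ifi35 (2.79), Trim30a (2.47), Ifitm2 (2.41), Ifitm1 (2.34) and the ubiquitin ligase gene Dtx3l (1.92) were higher. Dtx3l was called lower at its dimmer probe set 1439825_at (−1.54, limma adjusted p = 0.0167). With 1 array left out this ran from −1.77 to −1.30, and the call was lost without aRNA array 1. Trim30a gave −0.82 at 1417961_a_at (limma adjusted p = 0.429). The 3 Ifitm genes of the list encode membrane proteins that hinder viral entry, and Ifitm3, named here beside its relatives after its values were seen, was also higher (1.62, limma adjusted p = 0.0101). The genes called lower were Ifit2 (−1.68) and, named after their values were seen, Cmpk2 (−1.52), Shisa5 (−1.19) and Ifi27 (−0.56), with limma adjusted p between 0.00915 and 0.0467. Without aRNA array 0, Ifit2 (limma adjusted p = 0.0551) and Cmpk2 (limma adjusted p = 0.0726) were not called. Ifit2, Shisa5 (1437503_a_at) and Ifi27 (1454757_s_at) were not called without aRNA array 1, Ifitm3 and this Ifi27 probe set without cDNA array 0, and the latter without cDNA array 1. Dimmer probe sets of Shisa5 (1423986_a_at, −1.58) and Ifi27 (1452956_a_at, −1.66) were also called lower. With 1 array left out these ran from −1.70 to −1.46 and from −1.99 to −1.33. The higher calls of the list that were lost without aRNA array 0 were of genes not named here. Within the Ifit family, Ifit1, Ifit2 and Ifit3 thus gave 1.41, −1.68 and −0.16. The calls were 6 higher and 3 lower without aRNA array 0, 8 and 1 without aRNA array 1, 5 and 4 without cDNA array 0, and 7 and 3 without cDNA array 1, with medians between 0.19 and 0.85.

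The second comparison set number 1 against number 0 within each preparation. None of the 7 tested members was called in a limma fit with preparation and number, in which 0.0622% of all probe sets were (14 of 22519). At an unadjusted p under 0.05, 1 of the 7 passed, B2m at 1452428_a_at (0.69 ± 0.30, SE; limma adjusted p = 0.833). Of all 22519 probe sets tested, 1319 passed at that unadjusted p. The limma adjusted p of the other member probe sets ran from 0.897 to 0.986. The additive fit averages the preparations, and for most members these had unlike signs.

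Between the aRNA arrays, number 1 lay above number 0 at all 9 member probe sets, where 49.6% of all probe sets tested lay higher. The differences ran from 0.015 to 1.34 on the log2 scale. B2m gave 1.34 and 0.89, Usp18 0.91, Oasl2 0.91 and Ifit3 0.81. Irf7 gave 0.49, Cd74 0.39 and Ifit1 0.35. Bst2 gave 0.015, which lay just below 0 with each array centred on its median. The median absolute difference between the aRNA arrays over all probe sets tested was 0.33. All these values are set against aRNA array 0, the array that stood apart in Xist and Eif2s3y, and the part of that in them was not tested.

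Between the cDNA arrays, number 1 lay below number 0 at 7 of the 9 probe sets, where 51.3% of all probe sets tested lay lower. Cd74 gave −1.39 and Oasl2 −1.33, both with all arrays above background. Usp18 (−2.82) and Bst2 (−1.26) rested on a cDNA array 1 reading under background, and the drop was at least 1.21-fold and 1.59-fold against that level. Ifit3 gave −0.33, B2m −0.21 and 0.04, and Ifit1 −0.07, against a median absolute difference of 0.37 between the cDNA arrays. Irf7 differed the other way (0.80, or 0.30 with cDNA array 0 raised to its background level).

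Number 1 was thus lower within cDNA and higher within aRNA at 7 of 9 member probe sets, 6 of them among the 7 tested. Of all probe sets tested 24.7% had that combination, and 48.5% had opposite signs in either order. The difference between the preparations in this contrast was not tested, since 1 array per combination leaves no residual spread. The other interferon-induced genes gave the same combination in 19 of 30, against 26.6% of all genes tested (1 probe set each). In that list 26 of 30 were higher between the aRNA arrays (median 0.80), against 51.4% of all genes tested, and 9 of 30 between the cDNA arrays (median −0.41), against 46.8%. In the limma fit over both preparations none was called, and 2 passed an unadjusted p under 0.05, where 1319 of 22519 probe sets did. Trim30a (1.34 in cDNA and 1.20 in aRNA) and Oas2 (1.05 and 1.79) were those 2, and the list's genes above 1 in both.

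Single genes show how the 4 arrays were placed. Rtp4, an interferon-induced gene chosen here after its values were seen, read 10.17 and 9.22 on cDNA and 8.94 and 10.92 on aRNA (log2). H2-D1 at 1425545_x_at, also chosen after its values were seen, read 12.76 and 10.28 on cDNA and 8.23 and 13.49 on aRNA, differences of −2.48 and 5.26. H2-K1 at 1451931_x_at, chosen in the same way, gave −2.51 and 3.62. Probe sets ending in _x_at can bind related transcripts, which class I heavy chain genes have, and other probe sets differed less: H2-D1 gave −0.92 and 0.78 at 1426324_at, and H2-K1 0.06 and 1.72 at 1425336_x_at. Ctss, the cathepsin that cleaves the invariant chain encoded by Cd74, was called higher on number 1, by 1.53 within cDNA and 1.96 within aRNA (limma adjusted p = 0.00902). This call, like those for the microglial genes given next, rests on 1 residual degree of freedom, and without the intensity trend no probe set was called.

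Other markers were compared between the numbers in the same way. Of 12 microglial and macrophage genes tested, 10 were higher on number 1 between the cDNA arrays (median 1.13) and 11 between the aRNA arrays (median 2.73), and 2 were called, Tyrobp (1.95 and 3.53, limma adjusted p = 0.022) and C1qa (2.57 and 2.82, limma adjusted p = 0.0175). Cd68, Laptm5, C1qc and Aif1 also lay above 1 in both preparations. The summed intensity of the 14 markers was 56224 and 98312 on cDNA and 15615 and 103252 on aRNA. It moved the same way as the members between the aRNA arrays and the other way than 7 of 9 of them between the cDNA arrays. Of 3 tested endothelial genes all were lower on number 1 within cDNA (median −1.41) and 2 of 3 higher within aRNA (median 0.17), with a summed intensity over the 6 markers of 18819 and 7151 on cDNA and 3418 and 4287 on aRNA. Of 5 tested markers of border macrophages, monocytes and dendritic cells, all 5 were higher on number 1 within aRNA (median 1.76) and 3 lower within cDNA, Mrc1, Cd163 and Lyve1. Siglech (1.54 and 1.80), astrocyte Gfap (1.14 and 5.27) and neutrophil S100a9 (1.69 and 1.03, both aRNA readings under background) lay above 1 in both preparations. All 5 neuronal genes were higher on number 1 within cDNA (median 0.26) and within aRNA (median 0.35). Of 5 astrocyte genes 4 were higher in each (medians 0.55 and 0.95). Of 4 oligodendrocyte genes 3 were higher within cDNA (median 0.26) and 1 within aRNA (median −0.40). Among all genes tested 46.8% were higher within cDNA and 51.4% within aRNA. The part of these cell types in the members' values was not tested.

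**Figure D3:**
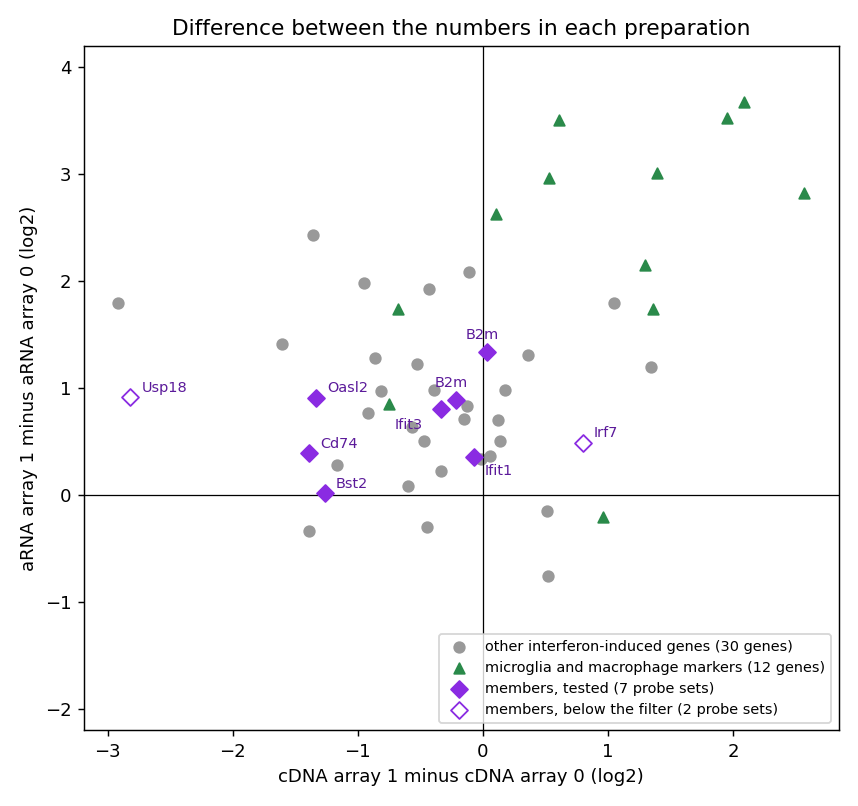
Difference between number 1 and number 0 within cDNA (horizontal axis, log2) against that within aRNA (vertical axis, log2), 1 array against 1 in each; violet diamonds are member probe sets (open where below the filter), grey circles the 30 other interferon-induced genes and green triangles the 12 microglial and macrophage genes. Members and interferon-induced genes lie mostly above 0 on the vertical axis and left of 0 on the horizontal one, and the microglial genes mostly right of 0.

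The profiles of the members over the 4 arrays were not alike. The mean profile of Irf7 and the 5 measured effectors, each centred on its own mean, was 0.22 and −0.62 on cDNA and −0.09 and 0.49 on aRNA. Oasl2 and Ifit3 lay nearest to it (Euclidean distance over the 4 arrays 0.42 and 0.46) and Ifit1 farthest (1.90). Among 11832 genes outside the lists the nearest were Tnfrsf1a (0.0949), Flot1 (0.0975), Cwf19l1 (0.13), Phlda1 (0.16), Doc2g (0.18) and Mcoln1 (0.18), where the median gene lay at 1.27, nearer than Ifit1 and Usp18 (1.70). The profile rests in part on readings under background. With these raised, cDNA array 1 stood at −0.25 in the mean profile, Ifit3 (0.18) and Usp18 (0.26) lay nearest, and 0 of the 6 nearest other genes were the same, so these names depend on how such readings are treated. With 4 arrays such likeness is a description only.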

How the data were processed

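Expression was measured on 4 arrays, each with 1 deposited intensity for every probe set, not log-transformed. Equal trimmed means show that each array had been scaled before the authors deposited the intensities. The software behind them is not stated in the labels. That scale was kept, and it hides any difference in total signal. From them log2(intensity + 16) was computed. Leaving out 64 control probe sets, probe sets with a mean at or above the 50th percentile were tested. For the preparations, limma 3.58.1 (R 4.3.3) was fitted with lmFit and eBayes with trend, adjusting p over all 22519 probe sets by Benjamini-Hochberg (threshold 0.05; 2 residual degrees of freedom), and for the numbers with terms for number and preparation (1 residual degree of freedom). The script was tested on simulated data. With 2 arrays per preparation and no label naming separate animals, p-values measure only the spread between these arrays. Within cDNA that spread may be technical. The aRNA arrays differed in the sex-linked Xist and Eif2s3y in opposite directions, so they are not taken as repeats of 1 RNA. The number of arrays limits the precision. Because of the added 16, folds of dim probe sets are understated.

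The platform annotation gave 1 symbol for 34945 probe sets, several for 932 (not named) and none for 9160. Symbols were updated by gene identifier in a RefSeq table (34741 found). For lists, the brightest probe set per gene was used. Genes named are all members, up to 6 per list with the largest difference among those past the threshold, and, for the numbers, those past the threshold or above 1 in both preparations with the same sign; other genes are marked, or named for comparison, as chosen after their values were seen. Members and lists were chosen with earlier results of these data known. A level under background bounds a fold, which is then computed against the background level. Plots used Python 3.11.15 and matplotlib 3.10.9.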

Additional observations from a re-analysis of the deposited data

Results flagged for a closer look

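At 7 member probe sets the arrays numbered 1 and 0 differed in opposite directions in the 2 preparations, a pattern that was not tested. Within cDNA and within aRNA the log2 differences (number 1 minus number 0) were −0.074 and 0.35 for Ifit1, −0.33 and 0.81 for Ifit3, −2.82 and 0.91 for Usp18, −1.33 and 0.91 for Oasl2, −1.26 and 0.015 for Bst2, −0.21 and 0.89 for B2m at 1449289_a_at, and −1.39 and 0.39 for Cd74. Opposite signs were also found at 48.5% of all probe sets tested. The values of Usp18 and Bst2 within cDNA rest on a reading under background, and those of Ifit1, Ifit3 and B2m within cDNA and of Bst2 within aRNA are smaller than the typical (median absolute) log2 difference of all probe sets tested, 0.37 within cDNA and 0.33 within aRNA.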

How the results depend on the processing

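Cd74 kept its direction and its call between the preparations under all 14 alternatives run for it (2.78 to 4.16). Ifit1 kept its direction in the 13 run for it and lost its call in 3 of the 4 fits with 1 array left out (1.23 to 1.58). Bst2 kept its sign with 1 array left out (−1.67 to −0.41). In these fits other differences that were not called changed sign: Ifit3 ran from −0.57 to 0.24, Oasl2 from −1.07 to 0.26, and B2m from −0.18 to 0.71 at 1449289_a_at and from −1.03 to 0.31 at 1452428_a_at. Member calls were 1 to 2 in these fits, and 1 with the filter at the 75th percentile (6454 probe sets in all), where Ifit1 was not among the 4 member probe sets tested. Between the numbers no member was called under any alternative run, while all calls came to 14 and changed to 8 with median centring, 24 with levels under background raised to it (added after seeing the data), 28 without the filter, 9 with a pseudocount of 64, 62 with quantile normalization, 7 without _x_at and _s_at probe sets, and 0 without an intensity trend (1101 at an unadjusted p under 0.05) or without a preparation term (47). Within 1 preparation the sign opposed that of the additive fit for Ifit1 (−0.074), Ifit3 (−0.33) and B2m at 1449289_a_at (−0.21) in cDNA, and for Oasl2 (0.91), Bst2 (0.015) and Cd74 (0.39) in aRNA; the cause was not tested. The labels do not say that a number pairs the arrays, and the number differences of the preparations correlated at 0.041 over all probe sets tested; with the number as a replicate block 10245 probe sets and the same 2 members were called between the preparations.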
